A study of Mus musculus with 12 samples.

Results

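The libraries that carry the replicate number 4 in their titles are described here beside those numbered 1 to 3, in RNA sequencing of Neuro-2a, a mouse neuroblastoma cell line. They are 3 of the 12 libraries: 1 of cells transfected with a miR-155 mimic, 1 of cells transfected with a miR-155 inhibitor and 1 of cells transfected with a control small RNA (labelled NC). The other 9 libraries are numbers 1, 2 and 3 of the same 3 transfections. The members were chosen by their number, and the number was singled out because earlier looks at these same counts showed that the 3 libraries stood apart. The difference between number 4 and numbers 1 to 3 is therefore given as a description. A fit of this contrast marks which genes are counted as called, its p-values are not printed, and the calls support nothing about the number. No label explains the number: none names a date, a passage, a culture dish, an extraction or a sequencing run for it.

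A mimic is a synthetic duplex that supplies a microRNA, and an inhibitor is an antisense strand that binds it. All 12 cultures are labelled wild type and shared one procedure. Transfection was done without serum and antibiotics, the medium was exchanged at 4 h, and the cells grew on to day 2. Every library is of the same cell line, so all results concern 1 line, and the labels do not say whether libraries with the same number came from 1 culture or 1 day. Neuro-2a cells divide, carry genes of the sympathetic lineage and can put out neurites.

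Cultured cells adjust large gene groups together. Cells short of oxygen express glycolytic genes, cells short of sterol express the mevalonate pathway, and cells short of amino acids or with blocked protein folding express stress genes through ATF4, HSF1 or ATF6. Growth in turn sets the levels of genes for ribosome assembly, DNA replication and mitosis. Hypoxia, glycolysis and sterol synthesis genes are only summarised here, and the text turns on the other functions and on the genes that were lower in number 4.

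In total counts, the libraries numbered 4 lay inside the range of the others, with 62389350 for mimic 4, 65233809 for inhibitor 4 and 68734250 for control 4, against 60695388 to 74200532. Genes with at least 1 count numbered 13673 to 13782 in number 4 and 13669 to 13836 in numbers 1 to 3. The 50 most abundant genes took 12.3% to 12.9% of counts in number 4 and 11.4% to 12.8% in numbers 1 to 3. The TMM scaling factor was 0.973 to 0.984 in number 4 and 0.977 to 1.02 in numbers 1 to 3, where the lowest value belonged to control 2. Mean GC content weighted by counts was 50.5% to 50.8% in number 4 and 50.6% to 51.4% in numbers 1 to 3, again with control 2 at the end of the range. No pair of libraries of a group agreed within sampling noise. On a multidimensional scaling of the 12 libraries, the first dimension held 16.4% of the variance and put mimic 4, inhibitor 4 and control 4 at 1.298, 1.298 and 1.202, while the other 9 lay between -0.868 and -0.161.

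Markers of the line were present in all 12 libraries. Of 18 neuroblastoma and sympathetic markers, 15 passed the filter on low counts, among them Hand2 with at least 37412 counts and Chgb with at least 71449 counts in every library, while Nefl and Nefm had at most 13 counts in any library. Among markers of other cells, the pan-leukocyte gene Ptprc had at most 4 counts, Cdh5 of endothelium at most 5, and Sox10 of Schwann cells at most 8. Other markers of the same lists were counted in every library, with 305 to 595 counts for the endothelial Pecam1, 950 to 1474 for Erbb3 and 665 to 1018 for Mbp of glia, and 567 to 1110 for Pdgfrb of fibroblasts. Their part in the differences of number 4 was not tested. Of 4 fibroblast, 4 glial and 4 immune or endothelial markers that passed the filter, 1 of each list (25%) was called higher in number 4. Over all genes tested 20.3% were called higher, so nothing is read from these counts. Over the marker lists, the summed level was 12.9 to 13.9 CPM in number 4 and 11.3 to 17.6 CPM in numbers 1 to 3 for fibroblast genes, 33.3 to 36.4 CPM and 27.0 to 33.9 CPM for glial genes, and 8.998 to 9.993 CPM and 5.71 to 8.57 CPM for immune and endothelial genes.

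Across the genome, 5723 of 13375 genes tested (42.8%) were called, which means an adjusted p under 0.05 in the fit of number 4 against numbers 1 to 3 with the transfection as a covariate. Of these, 2716 were higher (20.3% of genes tested) and 3007 were lower (22.5%). These shares are the background for every list below, and since this contrast chose the split nothing is read from them. All 3 libraries of number 4 lay above all 9 others for 2300 genes (17.2%) and below them for 2533 genes (18.9%). In bulk RNA, fewer cells of a type and less RNA per cell cannot be told apart. Most differences were small. The median log2 fold of genes called higher was 0.41 and of genes called lower -0.35, and 231 genes higher and 140 genes lower passed 2-fold. The median absolute log2 fold was 0.19 for the 20 genes just inside the threshold and 0.23 for the 20 just outside it. The typical standard error of a log2 fold was 0.0696, the median over 9219 genes above 10 CPM.

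**Figure D1:**
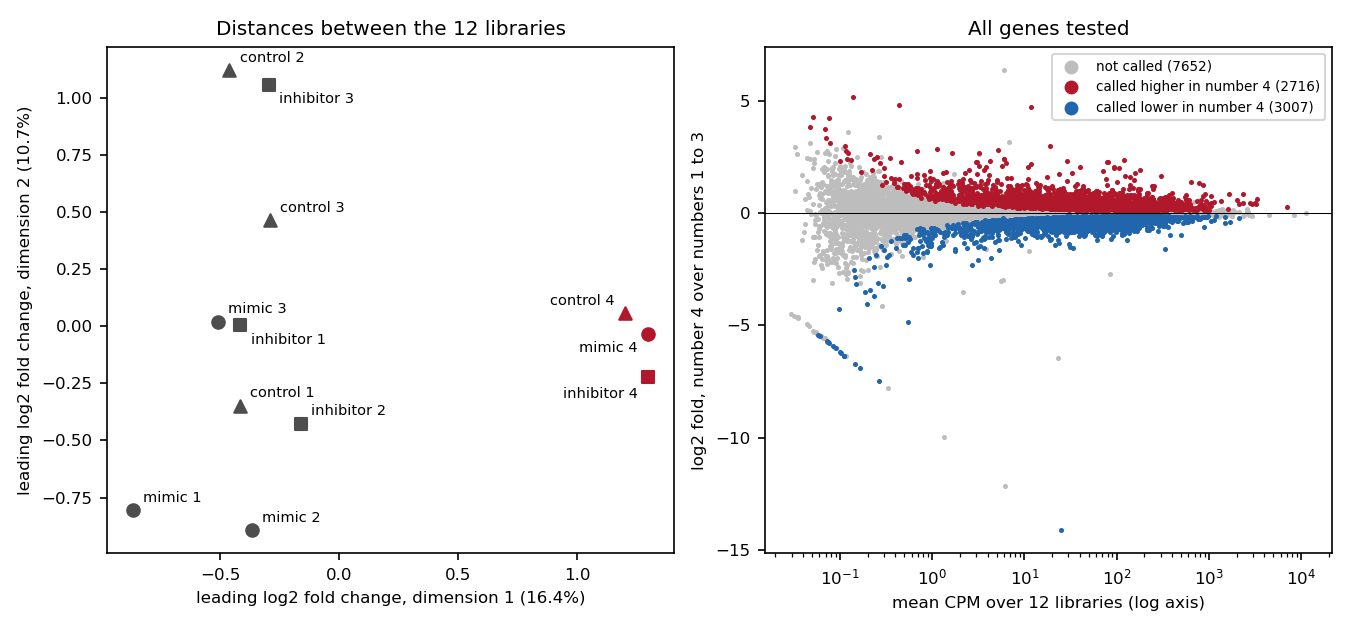
Left, multidimensional scaling of the 12 libraries by their leading log2 fold changes; red marks are the libraries numbered 4, grey marks numbers 1 to 3, and shapes are the transfections. Right, log2 fold of number 4 over numbers 1 to 3 against mean CPM (log axis) for all 13375 genes tested; red and blue points are the 2716 genes called higher and 3007 called lower. The 3 libraries numbered 4 lie at 1.202 to 1.298 on the first dimension, and the points far below 0 at the left are genes with few or no counts in number 4.

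Values below are CPM with TMM scaling, which compare 1 gene between libraries but not different genes. Where 3 values are given for number 4, they are those of mimic 4, inhibitor 4 and control 4 in that order. Values for numbers 1 to 3 are the lowest and highest of the 9 libraries, with the median. In each gene given in this way the 3 libraries of number 4 lay all above or all below the other 9, which the rule for naming partly required. Counts of list members without single libraries are given where they moved by over 1.5 times, except for counts under 5 against a list's main direction.

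Genes of the integrated stress response were lower in number 4. In this response, kinases that sense missing amino acids or misfolded protein phosphorylate eIF2α, translation slows, and the transcription factor ATF4 is made, which raises genes of amino acid supply and, later, a phosphatase subunit that ends the response. Of 33 ATF4 targets and stress genes tested, 1 was called higher and 16 lower, with a median log2 fold of -0.23, against -0.01 for all genes tested. Leaving out any 1 of the number 4 libraries gave 13 to 15 lower. Set against number 2 alone the median was -0.15. Ppp1r15a, the phosphatase subunit GADD34, measured 134, 131 and 125 CPM in number 4 and 283 to 463 CPM (median 426) in numbers 1 to 3. Atf3, a stress-induced repressor, measured 30.3, 33.4 and 29.7 CPM in number 4, against 59.2 to 80.5 CPM in numbers 1 to 3 (median 72.5). For the pseudokinase Trib3, which restrains ATF4, the values were 301, 299 and 265 CPM in number 4 and 461 to 716 CPM (median 579) in numbers 1 to 3. Nupr1, a stress-induced chromatin protein, measured 53.6, 52.1 and 54.7 CPM in number 4, against 72.0 to 109 CPM in numbers 1 to 3 (median 97.3). In these 4 genes the highest library of number 4 lay below the lowest of the other 9, and log2 folds were -1.61, -1.20, -0.99 and -0.83. The member called higher was Ddit4, an inhibitor of mTORC1 that hypoxia also induces, at 595, 591 and 522 CPM in number 4 and 333 to 392 CPM (median 359) in numbers 1 to 3. Ppp1r15a overlaps Tulp2 on the other strand, and whether reads were counted by strand is not given in the sources used here.

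ATF4 binds DNA as a dimer at composite elements, and the short motif TGATGCA stands for that site here. It was searched on both strands from 250 bases before to 50 bases after each start site, in the first promoter listed for each gene by RefSeq (GRCm38.p6). It occurred in 7 of 26 promoters of the list (26.9%) and in 2.04% of promoters of all genes tested, in 4 of 14 promoters of members called lower and 3 of 11 of members not called. The 3 stretches of 30 bases below belong to members called lower, and capitals mark the motif as read on the gene's strand, where it is the reverse complement.
Atf3, chr1:191183424-191183453, minus strand: cttctcgcactTGCATCAccaagtccgcgg
Nupr1, chr7:126625561-126625590, minus strand: aagggccagatTGCATCAgacagggcttgg
Chac1, chr2:119351039-119351068, plus strand: ttccctgccgtTGCATCActcctgccaggt
A match describes these letters and not a bound site, and no match in a window says nothing of ATF4.

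Heat shock and endoplasmic reticulum chaperones were higher. Heat shock factor HSF1 drives the cytosolic set, and ATF6 and XBP1 drive that of the reticulum. Of 22 heat shock chaperones tested, 15 were called higher and 1 lower (median log2 fold 0.34), with 12 to 14 higher when 1 library of number 4 was left out. Hspa8, the constitutive HSP70, measured 1540.3, 1509 and 1452 CPM in number 4, against 549 to 828 CPM in numbers 1 to 3 (median 594). Dnajb1, an HSP40 that hands clients to HSP70, measured 98.7, 98.1 and 90.2 CPM in number 4 and 53.3 to 66.2 CPM (median 59.3) in numbers 1 to 3. Hspa4l, a nucleotide exchange factor, measured 95.2, 98.6 and 111 CPM in number 4, against 44.4 to 77.4 CPM in numbers 1 to 3 (median 61.0). Among these, no library of number 4 overlapped the others. The member called lower was Hsf1 itself, at 114, 109 and 107 CPM in number 4 and 119 to 145 CPM (median 129.9) in numbers 1 to 3. The cytosolic chaperonin CCT and prefoldin, a separate list, had 4 of 14 members called higher and 1 lower (median 0.07). The count of higher members was 2 without control 4 and 7 without control 2.

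For the unfolded protein response, 14 of 27 members were called higher and 6 lower (median log2 fold 0.18, and 0.10 against number 2 alone). Without control 4, 9 were higher. Hspa5, the chaperone BiP, measured 811, 816 and 838 CPM in number 4, against 425 to 572 CPM in numbers 1 to 3 (median 444). Hsp90b1, or GRP94, measured 727, 708 and 779.8 CPM in number 4 and 404 to 565 CPM (median 508) in numbers 1 to 3. Pdia4, a disulphide isomerase, had a log2 fold of 0.41. Among members on the other side, Herpud1, a scaffold of the degradation complex, measured 126, 124 and 118 CPM in number 4, against 159.9 to 193 CPM in numbers 1 to 3 (median 174). The BiP cochaperone Dnajb9 measured 17.6, 18.3 and 15.9 CPM in number 4 and 21.5 to 28.2 CPM (median 23.3) in numbers 1 to 3. The reticulum's chaperones and the ATF4 targets differed in opposite directions in these libraries.

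Genes of ribosome assembly were lower far more often than higher. Ribosomes are built in the nucleolus, where RNA polymerase I makes the large precursor and many assembly factors cut and fold it. Of 60 such genes, 31 were called lower and 6 higher, with a median of -0.18. The 6 higher genes became 1, 2 and 3 without mimic 4, inhibitor 4 and control 4. With trends over transcript length and GC content removed in each library, the median was -0.0956. Imp4, of the complex that cuts the small-subunit precursor, measured 76.6, 77.2 and 77.9 CPM in number 4, against 113 to 135 CPM in numbers 1 to 3 (median 124). Polr1b, the second largest subunit of RNA polymerase I, measured 134, 130.3 and 136 CPM in number 4 and 182 to 217 CPM (median 193) in numbers 1 to 3. Subunits of its promoter factor SL1 were lower as well, Taf1a at 11.6, 9.62 and 11.99 CPM in number 4, against 24.8 to 31.4 CPM in numbers 1 to 3 (median 28.4) and Taf1b with a log2 fold of -0.60. On the other side stood Ebna1bp2, a large-subunit assembly factor, at 83.2, 84.2 and 84.2 CPM in number 4 and 55.0 to 67.1 CPM (median 58.4) in numbers 1 to 3, and Ncl, nucleolin, with a log2 fold of 0.27.

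MYC is the best-known driver of these genes, and Myc itself measured 224, 212 and 212 CPM in number 4, against 380.2 to 465 CPM in numbers 1 to 3 (median 437), a log2 fold of -0.99. Mycn, its neuronal relative amplified in many neuroblastomas, measured 29.0, 30.2 and 29.9 CPM in number 4 and 37.5 to 48.5 CPM (median 43.0) in numbers 1 to 3. The helix-loop-helix inhibitors Id1 and Id3, which titrate E proteins, had log2 folds of -0.98 and -0.78, and Mxd4, a MYC antagonist, one of -0.78. Over the 28 basic helix-loop-helix and MYC-network genes tested, 13 were called lower and 6 higher (median -0.18, -0.12 on log2(TPM + 1) and -0.04 above 10 CPM). Mean log2 CPM of the list was 4.587 to 4.735 in number 4 and 4.665 to 4.817 in numbers 1 to 3. Only control 4 lay below the range of numbers 1 to 3. MYC with its partner MAX recognises CACGTG. That motif occurred in 22.2% of 54 ribosome assembly promoters and in 10.1% of all promoters tested, in 6 of 28 of members called lower and 5 of 20 of members not called. The promoter of Imp4 is shown, with CACGTG in capitals. Among members called lower, only its match met the limits for showing a window, which include a full stretch of 30 bases before the start site.
Imp4, chr1:34439696-34439725, plus strand: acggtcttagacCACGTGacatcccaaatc

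Proteins of the mitochondrial ribosome, which translates the few messages of the organelle, leaned lower too. Of 78 such genes, 37 were called lower and 2 higher (median -0.14). With length and GC trends removed, 22 were lower and 10 higher, and the median was -0.0901. With no trend removed, the lower ones were 17 without inhibitor 4, 18 without control 4 and 30 without mimic 4. Mrpl49 measured 57.8, 60.5 and 56.6 CPM in number 4, against 88.5 to 96.8 CPM in numbers 1 to 3 (median 94.6), and Mrps26 52.5, 53.5 and 53.04 CPM in number 4 and 68.2 to 90.3 CPM (median 77.7) in numbers 1 to 3. Cytosolic ribosomal proteins differed less, with 8 of 85 called lower and 2 higher. With length and GC trends removed, 10 were higher and 3 lower and the median of -0.08 turned to 0.02. By transfection, with no trend removed, the median was 0.02 in mimic, -0.08 in inhibitor and -0.17 in control. Many processed copies of these genes exist, so reads may be divided between them. Members with the lowest log2 folds were Rpl22l1, a paralog of Rpl22, at 24.5, 28.6 and 26.0 CPM in number 4, against 31.9 to 49.8 CPM in numbers 1 to 3 (median 46.4), and the assembly-linked paralog Rpl7l1 with a log2 fold of -0.37. Nuclear subunits of the respiratory chain were also seldom called higher (13 of 78 lower, 2 higher), with a median of -0.09. With the same trends removed the split turned round, to 13 higher and 4 lower and a median of 0.00105. The 13 lower subunits became 3 without control 4, 4 without inhibitor 4, 7 without inhibitor 1 and 8 without mimic 3 or control 3, and the 8 lower cytosolic ribosomal proteins became 4 or 5 without any 1 library of number 4.

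Genes that charge tRNA leaned lower by calls, but the level of the list did not set number 4 apart. Its mean log2 CPM ran from 8.611 to 8.669 in number 4 and from 8.633 to 8.811 in numbers 1 to 3. Only control 4 lay below the range of numbers 1 to 3. Of 20 aminoacyl-tRNA synthetases, 10 were called lower and 3 higher (median -0.13). The median was -0.0426 with length and GC trends removed and -0.0841 without control 4. With those trends removed, 6 were lower and 4 higher. With no trend removed, the count of lower genes was 6 without inhibitor 4 and 4 without control 4. Aars, which charges alanine and is an ATF4 target, measured 998, 973 and 943 CPM in number 4 and 1104 to 1347 CPM (median 1227) in numbers 1 to 3, and Iars had a log2 fold of -0.35. Aars overlaps Exosc6 on its own strand. Farsa, a phenylalanine synthetase subunit, was on the other side at 145, 142 and 133 CPM in number 4, against 95.6 to 122 CPM in numbers 1 to 3 (median 107). Eif1, which helps the ribosome choose the start codon, measured 637, 635 and 606 CPM in number 4 and 869 to 1048 CPM (median 966) in numbers 1 to 3, and Eif2b1 and Eif2b2, subunits of the exchange factor that the stress kinases block, had log2 folds of -0.55 and -0.45.

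Genes of DNA replication were lower while genes of mitosis were higher. E2F factors raise the replication genes as cells enter S phase, and the mitotic genes peak later, in G2 and M. Of 52 replication genes, 24 were called lower and 1 higher (median -0.15), with 18 to 22 lower when 1 library of number 4 was left out. With length and GC trends removed, 21 were lower and 6 higher, and the median was -0.0655. Cdt1, the licensing factor that loads the helicase, measured 258, 255 and 246 CPM in number 4, against 327 to 393 CPM in numbers 1 to 3 (median 341). Tyms, thymidylate synthase, measured 65.3, 63.7 and 62.8 CPM in number 4 and 84.3 to 92.8 CPM (median 89.4) in numbers 1 to 3. Helicase cofactors Cdc45 and Mcm10 had log2 folds of -0.46 and -0.45. Orc1, an origin-binding subunit, was the member called higher, at 22.4, 20.6 and 23.1 CPM in number 4, against 14.5 to 18.1 CPM in numbers 1 to 3 (median 16.2).

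Of 44 mitotic genes, 25 were called higher and 4 lower (median 0.25), with 19 to 23 higher when 1 library of number 4 was left out. Cenpf, a large kinetochore protein, measured 49.1, 54.7 and 59.5 CPM in number 4 and 12.8 to 28.2 CPM (median 21.7) in numbers 1 to 3. Mki67, the proliferation antigen Ki-67 that coats mitotic chromosomes, measured 274, 273 and 287 CPM in number 4, against 90.9 to 174 CPM in numbers 1 to 3 (median 134). Cenpe, a kinetochore motor, measured 34.2, 36.4 and 46.3 CPM in number 4 and 16.0 to 29.2 CPM (median 25.001) in numbers 1 to 3, and Hmmr, a spindle protein, 99.9, 94.1 and 108 CPM in number 4, against 50.1 to 79.9 CPM in numbers 1 to 3 (median 64.3). Ckap2 and Spc24, a spindle and a kinetochore protein, lay on the other side with log2 folds of -0.28 and -0.27. The 9 other libraries also differ among themselves in these genes, as the ranges of Cenpf and Mki67 show.

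E2F sites were searched as TTTGGCG and the CCAAT box of cell-cycle promoters as CCAAT, both on either strand. The first occurred in 25.6% of 43 replication promoters against 2.56% of all promoters tested, in 6 of 21 of members called lower and 5 of 21 of members not called. CCAAT occurred in 75.7% of 37 mitotic promoters against 39.4% of all. It occurred in 18 of 21 of members called higher, 2 of 2 of members called lower and 8 of 14 of members not called. The windows below show these motifs in capitals in 2 replication genes called lower and 3 mitotic genes called higher, and CGCCAAA and ATTGG are the reverse complements of the motifs.
Mcm5, chr8:75109350-75109379, plus strand: aagaactttcgCGCCAAAacgtccagcctc
Chaf1a, chr17:56040362-56040391, plus strand: gccgcggttccCGCCAAAtacgagcgcggc
Cenpf, chr1:189688140-189688169, minus strand: ctctcgccatggCCAATgggcgtggaggct
Mki67, chr7:135716503-135716532, minus strand: tggccgcctggcCCAATcgcagcacttagc
Hmmr, chr11:40733440-40733469, minus strand: ttaggttttctgATTGGctgagggggaaag

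Of 62 core and linker histone genes tested, 14 were called lower, the share found over all genes tested (22.6% and 22.5%), and the median log2 fold was -0.39. The median was -0.22 among genes above 10 CPM and -0.24 without control 4, and 8 or 9 were lower without any 1 library of number 4. Replication-dependent histone messages lack a poly(A) tail, and the median level over the list was 0.270 CPM, so most members were measured from few reads. H1f2, a linker histone, measured 27.1, 23.2 and 22.02 CPM in number 4 and 37.3 to 49.7 CPM (median 42.9) in numbers 1 to 3. The replacement histones were better covered: H3f3b, one of a pair of genes for H3.3, measured 1137, 1167 and 1217 CPM in number 4, against 1499.7 to 1688 CPM in numbers 1 to 3 (median 1573), and H2ax, the variant marked at DNA breaks, 66.4, 64.5 and 62.6 CPM in number 4 and 71.0 to 90.3 CPM (median 78.8) in numbers 1 to 3. For DNA repair, 17 of 50 genes were called lower and 11 higher (median -0.01), and 11 were lower without inhibitor 4 or without control 4, and 6 were higher without control 4. The checkpoint kinase Atr was among the higher, at 19.5, 23.9 and 27.9 CPM in number 4, against 9.58 to 17.7 CPM in numbers 1 to 3 (median 14.2), and the glycosylase Ung among the lower, at 28.1, 28.0 and 27.2 CPM in number 4 and 33.0 to 40.6 CPM (median 36.4) in numbers 1 to 3.

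**Figure D2:**
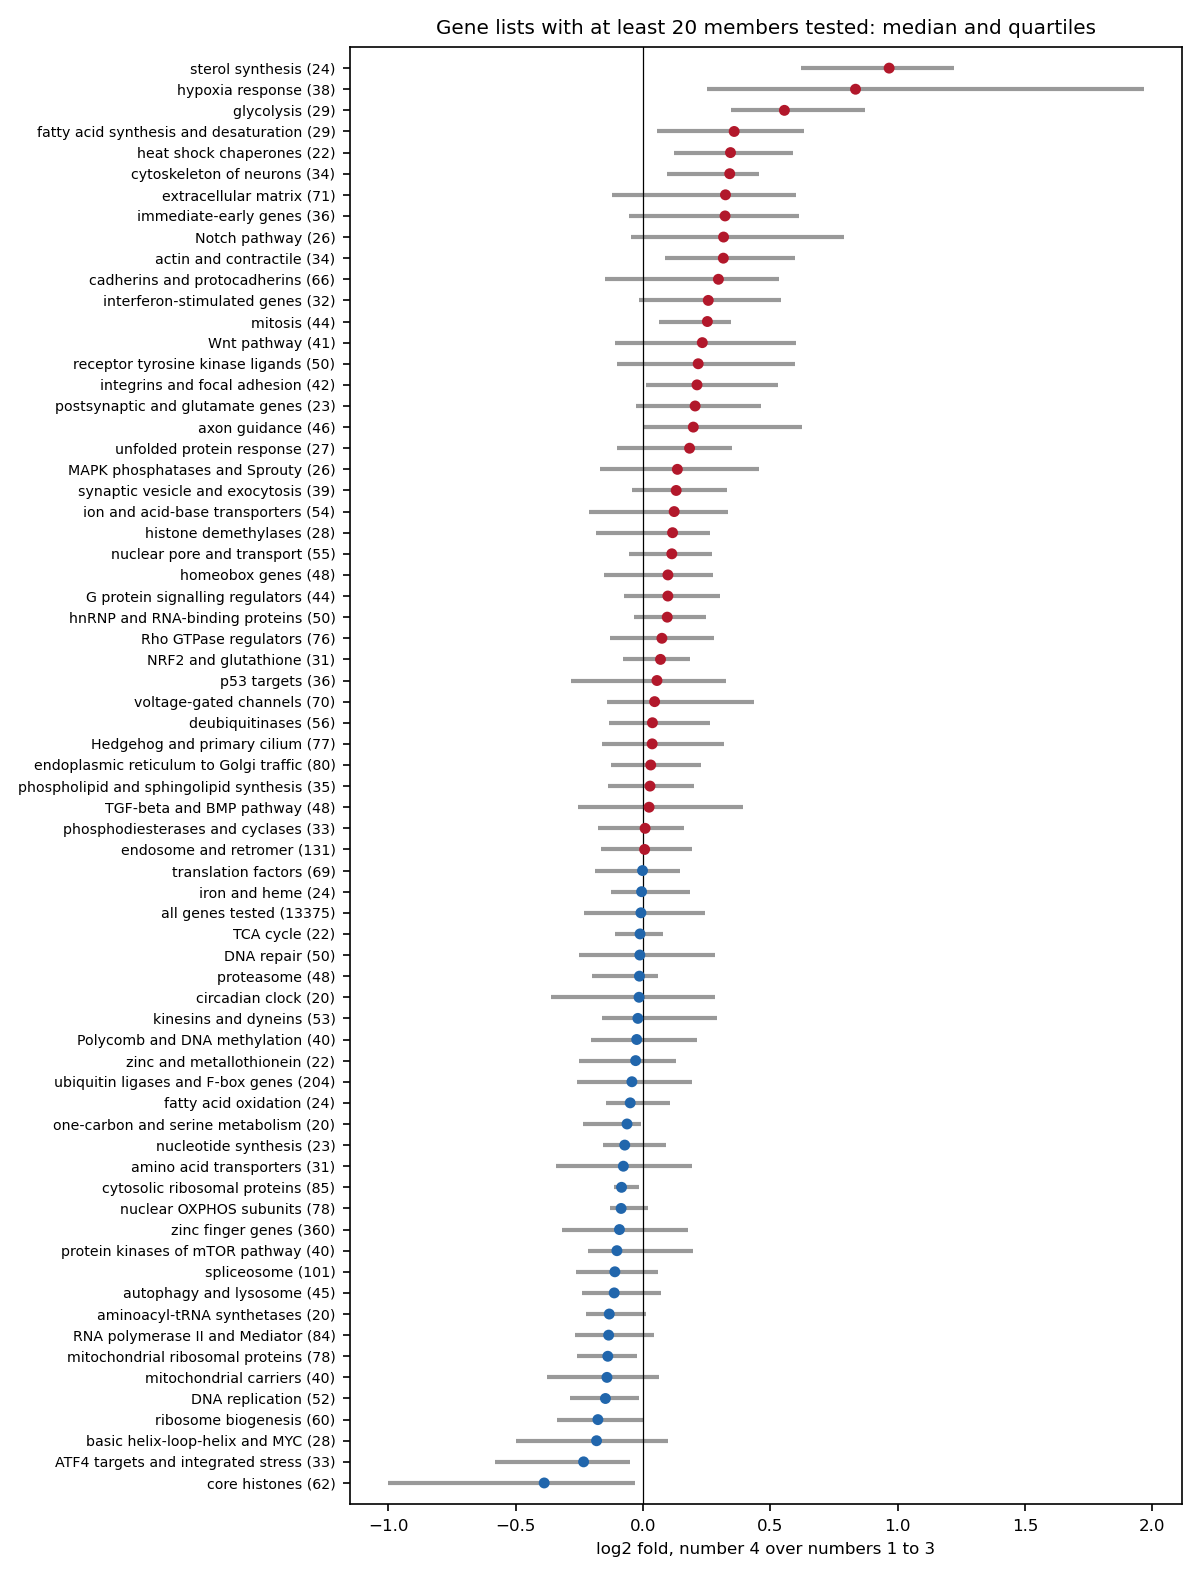
Log2 fold of number 4 over numbers 1 to 3 for gene lists with at least 20 members tested (number in brackets); points are medians and bars run between quartiles, red above and blue below 0. Sterol synthesis, hypoxia response and glycolysis lie highest (0.97, 0.83 and 0.56), core histones and ATF4 targets lowest (-0.39 and -0.23), and all genes tested lie at -0.01.

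RNA-processing and transcription genes were split by subunit. Of 101 spliceosome genes, 39 were called lower and 11 higher (median -0.11), with 7 and 5 higher without inhibitor 4 and without control 4. Within the U2 particle, Sf3a1 measured 265, 243 and 252 CPM in number 4, against 347 to 435 CPM in numbers 1 to 3 (median 402), and Sf3b1 394, 379 and 418 CPM in number 4 and 220.3 to 274 CPM (median 257) in numbers 1 to 3. These partners of the same particle differed in opposite directions, by log2 folds of -0.64 and 0.64. Tra2b, a splicing activator, measured 90.3, 90.7 and 102 CPM in number 4, against 133 to 164 CPM in numbers 1 to 3 (median 148). Among 84 genes of RNA polymerase II, its TAF proteins and Mediator, 36 were called lower and 14 higher (median -0.14, or -0.0895 with length and GC trends removed), and 23 were lower without inhibitor 4, while 9 were higher without inhibitor 4 or without control 4. Med22, of the Mediator head, measured 75.3, 75.1 and 78.3 CPM in number 4 and 117 to 149 CPM (median 124) in numbers 1 to 3, while Med12, of its kinase module, measured 71.2, 72.3 and 74.0 CPM in number 4, against 31.8 to 38.2 CPM in numbers 1 to 3 (median 34.1). Taf1, the largest subunit of TFIID, measured 115, 113 and 133 CPM in number 4 and 51.8 to 80.6 CPM (median 67.4) in numbers 1 to 3.

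Genes of the nuclear pore and transport leaned the other way, with 18 of 55 called higher and 8 lower (median 0.11, and 0.0700 against number 2 alone), and 10 were higher without control 4, while 5 were lower without any 1 library of number 4. Xpo1, the main export receptor, measured 389.7, 387 and 447 CPM in number 4, against 202 to 319 CPM in numbers 1 to 3 (median 269), and Nup205, a scaffold nucleoporin, 475, 465 and 466.04 CPM in number 4 and 292 to 366 CPM (median 319.8) in numbers 1 to 3. Of 360 zinc finger genes named Zfp, 98 were called lower and 34 higher (median -0.09). Without control 4, 16 were higher, and the median by transfection was -0.20 in mimic, -0.10 in inhibitor and 0.03 in control. Zfp213, one of them, measured 14.2, 12.04 and 15.4 CPM in number 4, against 32.9 to 41.3 CPM in numbers 1 to 3 (median 36.1). In the microRNA pathway, through which a mimic acts, 5 of 17 genes were called higher and 5 lower. Cnot1, the deadenylase scaffold, measured 428, 436 and 460.4 CPM in number 4 and 283 to 377 CPM (median 325) in numbers 1 to 3, and Dgcr8, the partner of the nuclear processing enzyme Drosha, 31.2, 35.6 and 37.3 CPM in number 4, against 43.7 to 55.96 CPM in numbers 1 to 3 (median 47.9). The list's median of 0.22 was 0.0395 with length and GC trends removed and 0.0526 without control 4, where 3 were higher, and 0.14 against number 1 alone.

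Among chromatin genes, the JmjC demethylases need oxygen, and some are themselves induced when it is short. Kdm3a, an H3K9 demethylase of that kind, measured 73.9, 77.5 and 72.6 CPM in number 4 and 26.3 to 40.2 CPM (median 33.5) in numbers 1 to 3, and Kdm5b, an H3K4 demethylase, 109, 108 and 107 CPM in number 4, against 59.9 to 69.1 CPM in numbers 1 to 3 (median 65.1). Over the list, 9 of 28 were called higher and 6 lower. Of 40 Polycomb and DNA methylation genes, 14 were lower and 8 higher, with 9 lower without control 4 and 4 higher without inhibitor 4 or without control 4. Examples were Pcgf1, a subunit of a variant complex, at 16.8, 15.4 and 13.4 CPM in number 4 and 21.2 to 24.3 CPM (median 22.9) in numbers 1 to 3 and the DNA demethylation enzyme Tet2 at 11.01, 9.74 and 12.1 CPM in number 4, against 3.48 to 7.15 CPM in numbers 1 to 3 (median 5.62). Of 20 clock genes, 5 were called higher and 6 lower. Bhlhe40 and Bhlhe41, repressors that hypoxia also induces, were higher at 219.6, 214 and 205 CPM in number 4 and 49.8 to 57.9 CPM (median 54.4) in numbers 1 to 3 and 20.5, 18.2 and 18.1 CPM in number 4, against 6.34 to 8.79 CPM in numbers 1 to 3 (median 7.68). Cry2 and Per2, of the negative limb, and the output factor Tef had log2 folds of -0.54, -0.47 and -0.56.

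**Figure D3:**
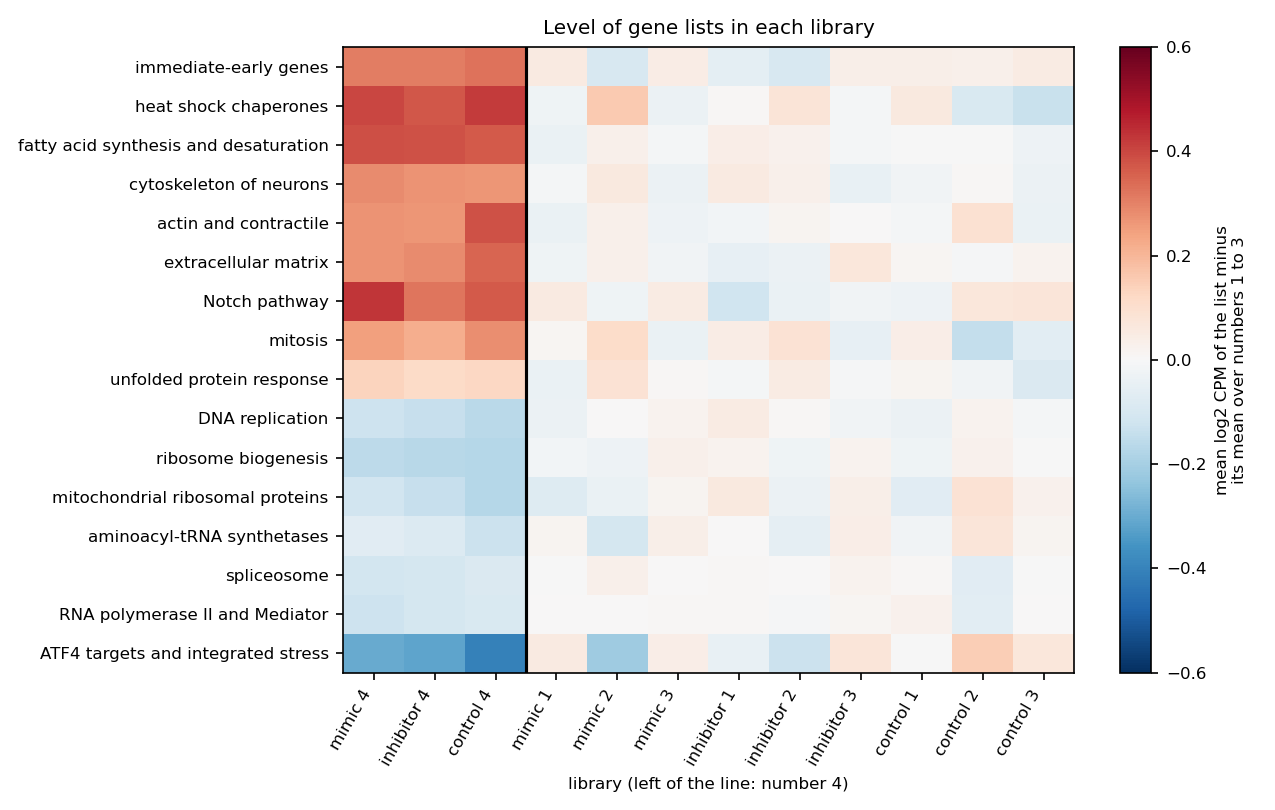
Mean log2 CPM of 16 gene lists in each library, minus the mean of numbers 1 to 3; red is higher and blue lower, and the 3 columns left of the line are number 4. The ATF4 list reads -0.30, -0.32 and -0.41 in mimic 4, inhibitor 4 and control 4, and heat shock chaperones 0.40, 0.37 and 0.42. Among the other 9, mimic 2 read -0.21 for the ATF4 list and 0.16 for heat shock chaperones.

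Signalling genes of the immediate-early type were mostly higher. These genes respond within minutes to growth factors and stress. Of 36 tested, 19 were called higher and 5 lower (median 0.32), with 17 higher whichever library of number 4 was left out and 3 lower without control 4. Ier3, an early survival gene, measured 207, 200.5 and 197 CPM in number 4 and 38.2 to 47.5 CPM (median 40.6) in numbers 1 to 3. Dusp4, a nuclear phosphatase of ERK and other MAP kinases, measured 429.8, 419.8 and 421 CPM in number 4, against 174 to 197 CPM in numbers 1 to 3 (median 181). Maff, a small MAF factor, measured 62.6, 60.2 and 54.3 CPM in number 4 and 28.2 to 35.2 CPM (median 31.2) in numbers 1 to 3, and Btg2, an antiproliferative gene that p53 also induces, 36.1, 36.7 and 32.7 CPM in number 4, against 16.1 to 21.3 CPM in numbers 1 to 3 (median 19.9). The members on the other side were led by Atf3 and Myc, given above. Among all dual-specificity phosphatases, Sprouty and Spred genes, 11 of 26 were called higher and 4 lower, with 7 higher without inhibitor 4.

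Cytokine, interferon and p53 genes differed in both directions. Il6, the inflammatory cytokine, was low throughout, at 4.25, 3.77 and 4.60 CPM in number 4 and 7.43 to 12.7 CPM (median 10.4) in numbers 1 to 3. Arid5a, an RNA-binding protein known in mouse macrophages to stabilise Il6 message, measured 9.26, 9.46 and 9.82 CPM in number 4, against 21.1 to 30.1 CPM in numbers 1 to 3 (median 25.9). Of 32 interferon-stimulated genes, 16 were called higher and 2 lower (median 0.26), but 8 were higher without inhibitor 4. Stat2, of the factor that drives them, measured 53.8, 55.0 and 54.3 CPM in number 4 and 30.4 to 40.5 CPM (median 33.9) in numbers 1 to 3, while its partner Irf9 measured 6.28, 6.94 and 6.61 CPM in number 4, against 8.61 to 12.9 CPM in numbers 1 to 3 (median 10.2). Adar, the double-stranded RNA editor, measured 109, 102 and 103 CPM in number 4 and 151 to 166 CPM (median 158) in numbers 1 to 3. Of 36 p53 targets, 8 were called higher and 11 lower (22.2% and 30.6%). The shares over all genes tested were 20.3% and 22.5%, so little sets this list apart. Without control 4, 7 were lower, and 5 were higher without inhibitor 4 or without control 4. With length and GC trends removed, 14 were higher and 11 lower. Cdkn1a, the cell-cycle inhibitor p21, measured 129, 126 and 119.8 CPM in number 4, against 56.3 to 86.7 CPM in numbers 1 to 3 (median 67.9), and Gadd45g, a stress gene of the GADD45 family, 9.89, 9.37 and 9.38 CPM in number 4 and 19.3 to 25.9 CPM (median 21.6) in numbers 1 to 3. Irf9 overlaps Rnf31 on its own strand.

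Genes of the cytoskeleton, tubulins and actins among them, were higher. Of 34 neuronal cytoskeleton genes, 22 were called higher and 3 lower (median 0.34). The β-tubulin Tubb6 measured 336, 323 and 306 CPM in number 4, against 154 to 199 CPM in numbers 1 to 3 (median 173), and Tubb2b, of neurons, 326, 317 and 298 CPM in number 4 and 162 to 209 CPM (median 169.6) in numbers 1 to 3. Reads of the nearly identical Tubb2a and Tubb2b can be exchanged, and Tubb2a differed alike, by 0.69. Kif5a, the neuronal kinesin heavy chain, measured 63.2, 61.4 and 58.3 CPM in number 4, against 88.0 to 101 CPM in numbers 1 to 3 (median 95.5). Stmn1, a microtubule destabiliser, measured 274, 281 and 264 CPM in number 4 and 334 to 384 CPM (median 358) in numbers 1 to 3. Both lay below the others. For actin and contractile genes, 17 of 34 were called higher and 3 lower (median 0.32). Actg1, cytoplasmic γ-actin, measured 4578, 4540.3 and 4312 CPM in number 4, against 2405 to 3329.9 CPM in numbers 1 to 3 (median 2826), and Actb, β-actin, 3952, 3881 and 3833 CPM in number 4 and 2622 to 3298 CPM (median 2833) in numbers 1 to 3. Cnn2, a calponin, measured 258, 261 and 241 CPM in number 4, against 97.9 to 141 CPM in numbers 1 to 3 (median 108), and Myh9, non-muscle myosin heavy chain, 1313, 1215 and 1198 CPM in number 4 and 695 to 834 CPM (median 734) in numbers 1 to 3.

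Matrix and adhesion genes were higher as well. Of 71 matrix genes, 32 were called higher and 8 lower, with a median of 0.32 that was 0.17 on log2(TPM + 1), where low genes weigh less. Without inhibitor 4, 5 were lower. Ccn1, a matrix signalling protein and target of YAP, measured 17.01, 15.0 and 14.2 CPM in number 4, against 2.82 to 3.86 CPM in numbers 1 to 3 (median 3.35). Vcan, the proteoglycan versican, measured 5.54, 6.66 and 6.86 CPM in number 4 and 0.829 to 2.57 CPM (median 1.97) in numbers 1 to 3, and Mmp9, a gelatinase, 4.27, 4.77 and 3.71 CPM in number 4, against 1.10 to 1.87 CPM in numbers 1 to 3 (median 1.48). Timp3, an inhibitor of such proteases, measured 9.48, 10.96 and 8.95 CPM in number 4 and 2.46 to 4.48 CPM (median 3.56) in numbers 1 to 3, and it lies within Syn3 on the other strand. Mmp28 was on the other side at 2.06, 1.83 and 2.41 CPM in number 4, against 2.75 to 5.26 CPM in numbers 1 to 3 (median 4.46). Of 42 integrin and focal adhesion genes, 18 were higher and 5 lower (median 0.21, or 0.14 on log2(TPM + 1)), with 3 lower without control 4. Itgb3, the integrin β3 chain, measured 22, 22.5 and 19.3 CPM in number 4 and 5.35 to 8.58 CPM (median 7.76) in numbers 1 to 3, and Vcl, vinculin, 146, 139 and 148 CPM in number 4, against 69.3 to 109 CPM in numbers 1 to 3 (median 79.9). Of 66 cadherins and protocadherins, 18 were higher and 3 lower (median 0.30, or 0.13 on log2(TPM + 1)). The level of this list did not set number 4 apart, as its mean log2 CPM was 0.640 to 0.685 there. It ran from 0.307 to 0.707 in numbers 1 to 3. Clustered protocadherins share exons and overlap each other, so values of Pcdhac1, at 9.56, 7.26 and 10.54 CPM in number 4 and 2.13 to 6.10 CPM (median 3.42) in numbers 1 to 3, and its neighbours are uncertain.

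Of 26 Notch pathway genes, 13 were called higher and 3 lower (median 0.32, and 0.12 among genes above 10 CPM). The receptor Notch3 measured 5.55, 5.24 and 6.08 CPM in number 4, against 0.897 to 2.02 CPM in numbers 1 to 3 (median 1.49), the ligand Jag1 7.93, 7.10 and 8.21 CPM in number 4 and 1.87 to 3.89 CPM (median 2.74) in numbers 1 to 3, and the target Hey2 8.01, 7.93 and 8.10 CPM in number 4, against 2.62 to 4.90 CPM in numbers 1 to 3 (median 3.56). Hes6, which opposes Hes1, measured 32.8, 33.0 and 31.8 CPM in number 4 and 38.7 to 49.9 CPM (median 43.7) in numbers 1 to 3. In the Wnt pathway, 14 of 41 were higher and 7 lower (median 0.23, 0.12 above 10 CPM and 0.12 on log2(TPM + 1)). Its receptors Fzd5 and Fzd7 had log2 folds of 1.06 and 0.97, the ligand Wnt5a one of 1.04, and the scaffold Axin1 one of -0.43. Growth factor receptors and ligands showed 16 of 50 higher and 1 lower (median 0.22, or 0.10 on log2(TPM + 1)). Gfra1, the GDNF coreceptor, measured 7.94, 7.80 and 8.47 CPM in number 4, against 2.56 to 4.47 CPM in numbers 1 to 3 (median 3.38), and Fgfr3 34.4, 33.5 and 33.2 CPM in number 4 and 13.9 to 17.5 CPM (median 16.1) in numbers 1 to 3. In the TGF-β and BMP pathway, 10 were higher and 11 lower of 48, shares near those of all genes tested. Fstl1, a secreted binder of BMPs, measured 148, 143 and 144 CPM in number 4, against 76.6 to 84.4 CPM in numbers 1 to 3 (median 81.2), and Inhbe, a liver-enriched activin subunit, 0.906, 1.61 and 1.46 CPM in number 4 and 3.10 to 4.34 CPM (median 3.71) in numbers 1 to 3.

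Neuronal genes were mixed. Of 39 synaptic vesicle genes, 15 were called higher and 4 lower (median 0.13, and 0.23 without mimic 4). Sncb, β-synuclein, measured 73.3, 64.8 and 64.0 CPM in number 4, against 22.1 to 31.5 CPM in numbers 1 to 3 (median 28.1), and Unc13a, a vesicle priming factor, 252, 238 and 251 CPM in number 4 and 152 to 179 CPM (median 166) in numbers 1 to 3. Of 46 axon guidance genes, 18 were higher and 5 lower (median 0.20, 0.11 above 10 CPM, 0.13 on log2(TPM + 1) and 0.31 without mimic 4). The midline ligand Slit1 measured 8.17, 6.88 and 7.67 CPM in number 4, against 1.02 to 2.30 CPM in numbers 1 to 3 (median 1.85), and the semaphorin receptor Plxnb1 13.2, 14.8 and 15.0 CPM in number 4 and 24.2 to 28.9 CPM (median 25.1) in numbers 1 to 3. Among 23 postsynaptic genes, 8 were higher and 3 lower, with 5 higher without mimic 4 or without inhibitor 4. The list's median of 0.20 was 0.13 above 10 CPM, 0.0922 with length and GC trends removed and 0.0342 on log2(TPM + 1), and NMDA receptor subunits Grin1 and Grin2d were among the lower ones with log2 folds of -0.45 and -0.86. Voltage-gated channels had 15 of 70 higher and 4 lower (median 0.05). Of 44 G protein signalling regulators, 14 were higher and 6 lower, with 9, 8 and 9 higher without mimic 4, inhibitor 4 and control 4, and 3 lower without mimic 4 or without control 4. Rgs4, a brake on Gq and Gi signalling, measured 8.82, 9.05 and 8.07 CPM in number 4, against 0.820 to 2.02 CPM in numbers 1 to 3 (median 1.31).

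Sympathetic lineage factors were lower. Of the 15 lineage markers tested, 8 were called lower and 2 higher (median -0.16, or -0.0616 with length and GC trends removed). Phox2a, a homeobox regulator of sympathetic neurons, measured 263, 260.3 and 248 CPM in number 4 and 338 to 397 CPM (median 355) in numbers 1 to 3. Gata3, which acts with it in these neurons, measured 28.6, 24.9 and 27.7 CPM in number 4, against 40.5 to 48.9 CPM in numbers 1 to 3 (median 45.1). Gata3 overlaps 9230102O04Rik on its own strand. On the other side, Ddc, which makes dopamine, measured 7.05, 7.05 and 7.16 CPM in number 4 and 3.33 to 4.73 CPM (median 4.34) in numbers 1 to 3, and Tubb3, the neuronal tubulin, 647, 625.4 and 589 CPM in number 4, against 398 to 539 CPM in numbers 1 to 3 (median 440.3).

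**Figure D4:**
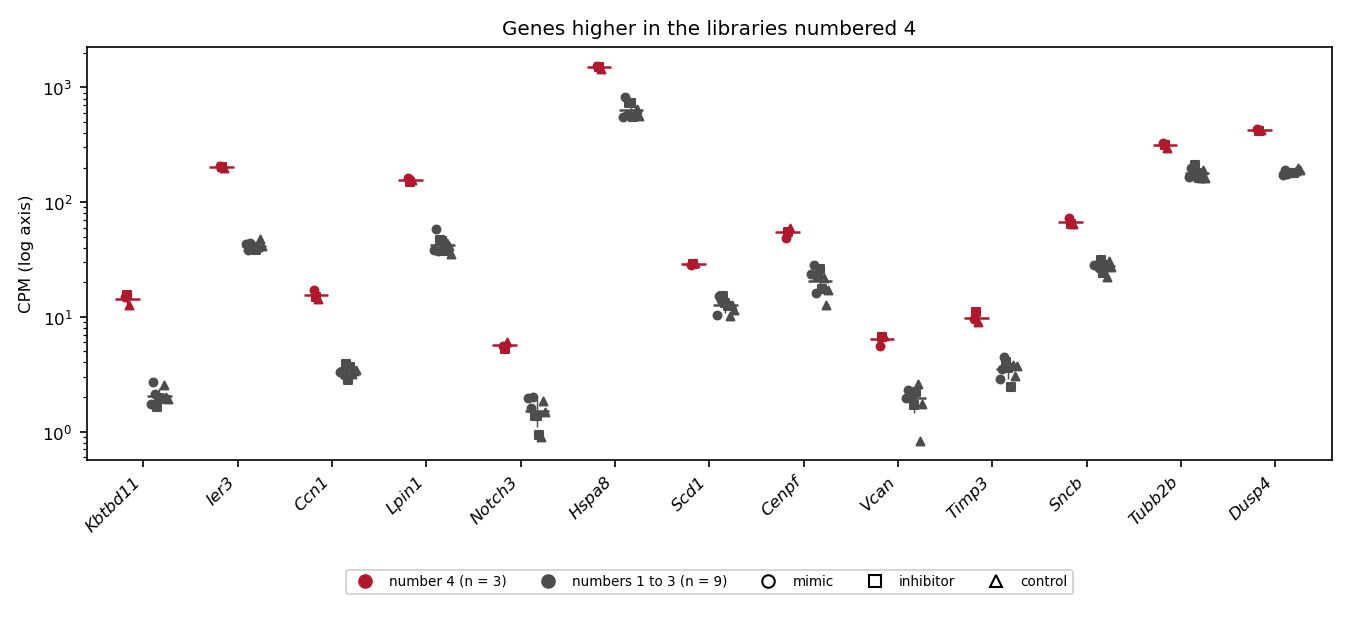
CPM (log axis) of 13 genes higher in number 4, by library; red marks are the 3 libraries numbered 4, grey marks the 9 others, shapes are the transfections, and bars are the mean and SD. For each gene the lowest red mark lies above the highest grey one, as for Ier3 at 197 to 207 CPM and 38.2 to 47.5 CPM.

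**Figure D5:**
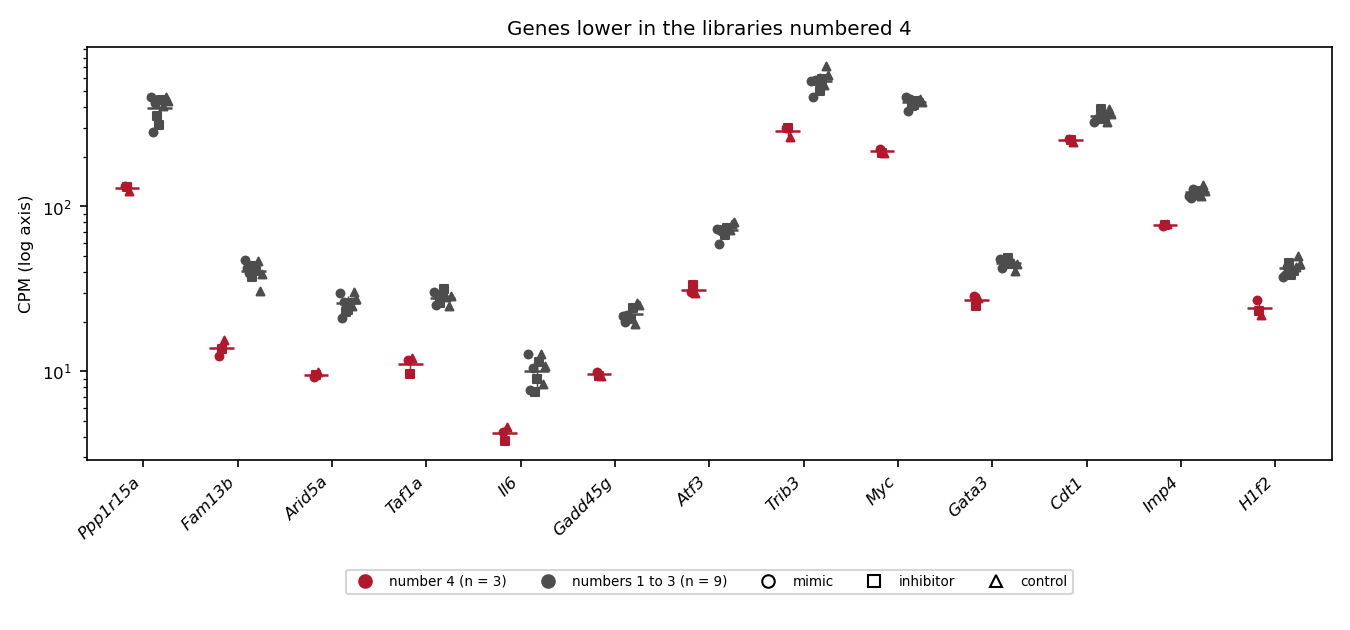
CPM (log axis) of 13 genes lower in number 4, drawn in the same way. For each gene the highest red mark lies below the lowest grey one, as for Gata3 at 24.9 to 28.6 CPM and 40.5 to 48.9 CPM.

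Genes of fatty acid synthesis were higher. Fatty acids are built from acetyl-CoA by Acly, Acaca and Fasn and desaturated by Scd enzymes, and SREBP factors drive them along with sterol genes. Of 29 genes of this kind, 16 were called higher and 1 lower (median 0.36). Scd2, the main desaturase of brain, measured 3602, 3513 and 3588 CPM in number 4 and 1835 to 2249.8 CPM (median 1904) in numbers 1 to 3. Fasn, fatty acid synthase, measured 1408, 1363 and 1322 CPM in number 4, against 686 to 919.6 CPM in numbers 1 to 3 (median 733), and Acly, ATP citrate lyase, 2663, 2617 and 2539 CPM in number 4 and 1883 to 2012 CPM (median 1980.1) in numbers 1 to 3. Lpin1, a phosphatidate phosphatase, measured 162, 149 and 156 CPM in number 4, against 35.1 to 57.8 CPM in numbers 1 to 3 (median 41.1). Of 24 genes of fatty acid oxidation, 3 were higher and 6 lower (3 without inhibitor 4), and with length and GC trends removed 7 were higher and 4 lower. Of 35 genes of phospholipid and sphingolipid synthesis, 9 were higher and 9 lower (median 0.03). The oxidation list held Hadhb of the trifunctional protein at 18.9, 20.6 and 19.2 CPM in number 4 and 23.0 to 30.004 CPM (median 28.1) in numbers 1 to 3.

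Nutrient-sensing and catabolic genes leaned lower. Of 40 genes around mTOR, 14 were called lower and 9 higher (median -0.10, or -0.0373 with length and GC trends removed and -0.0673 against number 2 alone), and without inhibitor 4 or without control 4 there were 8 lower and 5 higher. Sesn2, a leucine sensor and ATF4 target, measured 155, 145 and 143 CPM in number 4, against 232 to 279.6 CPM in numbers 1 to 3 (median 251), and Mlst8, a core subunit of both mTOR complexes, 26.1, 25.2 and 22.9 CPM in number 4 and 37.0 to 47.2 CPM (median 43.6) in numbers 1 to 3. Of 45 autophagy and lysosome genes, 15 were lower and 6 higher (median -0.11, which was -0.0136 with those trends removed and -0.0528 without control 4). With those trends removed, 12 were lower and 10 higher. Wipi2, which recruits the conjugation machinery, measured 94.1, 88.5 and 85.4 CPM in number 4, against 131 to 167 CPM in numbers 1 to 3 (median 146), while the initiating kinase Ulk1 measured 47.7, 50.5 and 42.6 CPM in number 4 and 25.7 to 30.9 CPM (median 27.6) in numbers 1 to 3. Of 40 mitochondrial carriers, 17 were lower and 4 higher, with 10 lower without control 4. Slc25a38, a glycine carrier for heme synthesis, measured 21.9, 25.6 and 23.2 CPM in number 4, against 33.6 to 45.6 CPM in numbers 1 to 3 (median 37.8), and Slc25a1, the citrate carrier that feeds lipid synthesis, 241, 233 and 222 CPM in number 4 and 142 to 181 CPM (median 154) in numbers 1 to 3. Slc1a4, a neutral amino acid exchanger, measured 233, 232 and 222 CPM in number 4, against 304 to 381 CPM in numbers 1 to 3 (median 345).

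Redox, iron and proteasome genes were called in both directions. Of 24 iron and heme genes, 6 were higher and 5 lower (25% and 20.8%). These shares lay near those of all genes tested (20.3% and 22.5%), and 3 were lower without control 4. Among 31 NRF2 and glutathione genes, 9 were higher and 4 lower (median 0.07). Srxn1, sulfiredoxin, measured 60.8, 57.1 and 53.8 CPM in number 4 and 33.4 to 36.9 CPM (median 35.6) in numbers 1 to 3, and Gpx1, a glutathione peroxidase, 126, 126 and 121 CPM in number 4, against 150.4 to 191 CPM in numbers 1 to 3 (median 158). Tfrc, the transferrin receptor, measured 159, 155 and 177 CPM in number 4 and 67.8 to 122.8 CPM (median 84.7) in numbers 1 to 3, and Uros, a heme synthesis enzyme, 11.2, 11.2 and 8.78 CPM in number 4, against 16.1 to 20.996 CPM in numbers 1 to 3 (median 18.4). Of 48 proteasome genes, 14 were lower and 5 higher, with 9 lower without control 4 and 3 higher without inhibitor 4. With length and GC trends removed, 16 were higher and 10 lower, and the median of -0.01 turned to 0.05. Psmc2, an ATPase of the regulatory particle, measured 139, 137 and 135 CPM in number 4 and 169 to 193 CPM (median 182) in numbers 1 to 3, and the activator Psme4 203, 209 and 244 CPM in number 4, against 95.8 to 164 CPM in numbers 1 to 3 (median 141).

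Farthest from 1 among the genes of the naming rule were Kbtbd11, which encodes a BTB and kelch protein, and Plekha2, a lipid-binding adaptor. Kbtbd11 measured 14.7, 15.6 and 12.8 CPM in number 4 and 1.64 to 2.71 CPM (median 1.95) in numbers 1 to 3, a log2 fold of 2.81. Plekha2 measured 72.4, 73.5 and 69.9 CPM in number 4, against 12.6 to 18.1 CPM in numbers 1 to 3 (median 14.3), a log2 fold of 2.30. Peg10, an imprinted gene of retrotransposon origin, measured 332, 325 and 354 CPM in number 4 and 78.1 to 123.1 CPM (median 97.2) in numbers 1 to 3. Mgarp and Cox4i2, a mitochondrial protein and a respiratory subunit isoform, had log2 folds of 2.20 and 2.11, Ccng2, cyclin G2, one of 1.75, Cavin1, a caveolar coat protein, one of 1.59, and Hspa2, an HSP70 relative, one of 1.54. Kdelr3, a receptor that returns escaped chaperones to the reticulum, had one of 1.57, and Armh4 and Ier5l had 1.32 and 1.31. Cdc42ep2, an effector of CDC42, measured 7.96, 9.32 and 7.23 CPM in number 4, against 1.69 to 2.56 CPM in numbers 1 to 3 (median 2.31).

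Beside Ppp1r15a, genes of less related kinds had the lowest log2 folds of the naming rule. Fam13b, with a RhoGAP domain, measured 12.4, 13.6 and 15.4 CPM in number 4 and 30.7 to 47.4 CPM (median 40.5) in numbers 1 to 3. Acpp, a transmembrane acid phosphatase that also makes adenosine, measured 12.9, 11.1 and 14.6 CPM in number 4, against 33.0 to 43.3 CPM in numbers 1 to 3 (median 36.8). Atoh8, a helix-loop-helix factor, had a log2 fold of -1.43, Dffb, the caspase-activated DNase, one of -1.19, Zc3h8, a zinc finger protein, one of -1.19, and Shpk, a sugar kinase of the pentose pathway, one of -1.16. Adamtsl2, Ccdc137 and Apon had -1.18, -1.15 and -1.10. Another 3 are uncertain because they overlap a neighbour: Fam186b (-1.63) with Prpf40b on the other strand, Wdr45 (-1.19) with Gm45208 and Irgm2 (-1.11) with Igtp on the same strand. Fam13b, given above, is uncertain in the same way, as it overlaps Pkd2l2 on the other strand. Dock3, an exchange factor for RAC1, was under the level asked for by the rule and was named as a list member, at 0.626, 1.03 and 0.429 CPM in number 4 and 2.95 to 3.88 CPM (median 3.46) in numbers 1 to 3.

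A second rule named genes by the difference in CPM, which picks long and abundant genes. Its losses included H3f3b, Eif1, Trib3, Ppp1r15a, Myc and Aars, given above. Rcc2, a chromosome and RAC1 regulator, measured 1378, 1367 and 1311 CPM in number 4, against 1627 to 2067 CPM in numbers 1 to 3 (median 1800.5). Clic4, a chloride channel-like protein, measured 851, 864 and 869 CPM in number 4 and 988 to 1187 CPM (median 1145) in numbers 1 to 3. Of the sodium pump β chains, Atp1b1 was higher at 19.001, 18.6 and 19.002 CPM in number 4, against 6.30 to 9.59 CPM in numbers 1 to 3 (median 7.68), and Atp1b2 had a log2 fold of 1.13. These β chains were named as list members and not by the second rule. Gains beside Scd2, the actins and the fatty acid enzymes included Hsp90ab1, the constitutive HSP90, at 8284, 8094 and 7751 CPM in number 4 and 6177 to 7287 CPM (median 6523) in numbers 1 to 3, and for the tubulins Tubb5 and Tuba1a with log2 folds of 0.39 and 0.45. Ubb, a polyubiquitin gene, had the weakest call of those named, with a log2 fold of -0.16 that was -0.04 with length and GC trends removed. It was not called under 16 of the 24 alternatives tried, and Hsp90ab1 was not called against number 2 alone.

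For context, 75 of 86 hypoxia, glycolysis and sterol genes tested were called higher. Median log2 folds were 0.83 for hypoxia response, 0.56 for glycolysis and 0.97 for sterol synthesis. Adm, adrenomedullin, was farthest, at 43.8, 41.8 and 42.5 CPM in number 4, against 0.960 to 2.20 CPM in numbers 1 to 3 (median 1.67). Eno1b, a paralog of enolase 1 with which it can share reads, had a log2 fold of 0.56. Among members on the other side were Stc2, a stanniocalcin that is also an ATF4 target, with -0.80, Wsb1 with -0.69 and the glycolytic regulator Pfkfb3 with -0.37. Outside every one of the 75 lists stood 1897 genes called higher and 2236 called lower.

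Called genes differed in build, a property that the split did not use. The median annotated transcript length was 4054 bases for genes called higher, 3142 for genes called lower and 3324 for all genes tested. Median GC content was 49.3%, 52.0% and 50.3% in the same order, and the median genomic span 34.8, 16.9 and 22.8 kb. By quartile of length, the median log2 fold ran from -0.07 in the shortest to 0.11 in the longest, and by quartile of GC content from 0.09 in the poorest to -0.08 and -0.05 in the richest pair. With trends over both removed in each library, 3560 genes were called higher and 2822 lower. On the X chromosome, 24.2% of 418 genes were called higher and 10.53% lower. On single autosomes these shares ran from 17.9% to 25.2% and from 13.8% to 27.2%, so that the X share of lower genes lay under that of each autosome, and X genes had a median GC content of 45.8% against 50.5% for autosomal genes.

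Whether the number 4 difference itself varied with the transfection was tested with an interaction term, a measure the choice of the split did not use. Each transfection has 1 library numbered 4, so this test sets single libraries against each other. Of 13750 genes tested jointly by edgeR, 7 passed an adjusted p of 0.05 (0.0509%), and 206 had an unadjusted p under 0.05. The 206 are fewer than a share of 0.05 of the genes tested, so they show no excess of small p-values. Cpne1, a calcium-dependent membrane binder, measured 61.9 CPM in mimic 4, 23.9 in inhibitor 4 and 54.3 in control 4, against 46.9 to 53.2 CPM in numbers 1 to 3 (adjusted p = 0.00563 by edgeR). Gm28036 overlaps Cpne1 on the same strand, and it measured 48.2 CPM of total counts in inhibitor 4, 12.7 in control 4, 0.850 in mimic 4 and 0.0455 to 4.42 in numbers 1 to 3.

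Another 5 genes of this test were low. Ctf1, cardiotrophin 1, measured 0.379 CPM in mimic 4, 3.72 in inhibitor 4 and 4.18 in control 4 (adjusted p = 0.0154 by edgeR). Gm14434 measured 0.544 CPM in mimic 4, 4.39 in inhibitor 4 and 3.39 in control 4 (adjusted p = 0.0187 by edgeR). A row named Samd13 was at 0 in mimic 4, while a second row of the same symbol, which overlaps it, measured 0.737 CPM of total counts in mimic 4 and 0 in the other 11 libraries. Gm26920 was at 0 and Gm44503 at 0.163 CPM in control 4, and both overlap other genes on the same strand.

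The count of 7 depended on single libraries, at 2 without control 3, 3 without inhibitor 2 and 11 without control 1. By the rule for naming, which asked for a mean of at least 5 CPM, genes of small p that did not pass were Prss41 (adjusted p = 0.177), Gm21981 (adjusted p = 0.184), and Snx33, Zfp959 and Phc3 (adjusted p = 1 for each), all by edgeR. Nothing says that the libraries came from separate cultures, so these p-values measure only the spread between these libraries, which may be technical.

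Set against each other number alone, in a fit of all 12 libraries, number 4 differed by 3893 genes from number 1, by 4019 from number 2 and by 4690 from number 3, with 1786, 1850 and 2261 of them higher. These comparisons share the libraries numbered 4. Leaving out 1 of those moved the count of calls to 4753 without mimic 4, 4248 without inhibitor 4 and 4070 without control 4.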

How the data were processed

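RNA of 12 Neuro-2a cultures was sequenced, 4 libraries for each of 3 transfections. The authors deposited gene counts and TPM values for 15767 genes. The deposited counts are whole numbers and the deposited TPM values are scaled by gene length and library. The tools named in the submitters' processing notes are StringTie, featureCounts, STAR, fastp and edgeR, with the GRCm39 build and no versions or settings. Whether counting used strand is not given in the sources used here.

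Libraries were grouped by the number in their titles. The members and gene lists were chosen with earlier results of these data known. Counts were fitted with edgeR 4.0.16 in R 4.3.3 by the quasi-likelihood test with robust dispersion, TMM scaling, filterByExpr and terms for transfection and number 4, with Benjamini-Hochberg adjustment at 0.05. A second model with an interaction term was tested jointly, and it kept 13750 genes. DESeq2 1.42.0, limma 3.58.1 on log2(TPM + 1) and log2(TPM + 0.1), and trends over length and GC content fitted with mgcv 1.9.3 were alternatives. The code was tested on simulated data.

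Genes were named by rules. Eligible genes were called, averaged 5 CPM or more, had all 3 libraries of number 4 outside the range of the other 9, and were in none of the hypoxia, glycolysis and sterol lists. The rules took the 20 highest and 20 lowest by log2 fold, and the 10 largest gains and 10 largest losses in CPM. In each of 75 lists they were up to 4 members with a mean of at least 2 CPM and the largest log2 fold in the direction of the list's median, and up to 2 against it. For the interaction they were the 10 of smallest p with a mean of at least 5 CPM, and the others below that level that passed were named after their values were seen. Gene names came from the deposited table for 15499 genes and from a table of gene names for 260 more, while 8 stayed unnamed. Length, GC content, span and overlaps came from GENCODE M21 (GRCm38) by gene identifier for 15738 genes. Overlaps are stated for some named genes only. Others overlap a neighbour too, such as Kdelr3 with Ddx17 on the other strand and Tuba1a with Gm49450 on the same strand. Some genes that the rules took are not reported here.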

Additional observations from a re-analysis of the deposited data

Results flagged for a closer look

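Among 57 named genes, 2 had 1 of the 9 libraries numbered 1 to 3 standing away from the rest by Dixon's criterion, which chance meets in about 1 in 20 groups. Ccdc137 was lowest in mimic 2 at 86.1104 CPM, still above the 45.5, 43.2 and 47.6 CPM of number 4. Ubb was highest in control 2 at 1750.83 CPM, the library that also had the lowest scaling factor among numbers 1 to 3.

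The difference of number 4 varied with the transfection for 7 genes in the interaction test of edgeR, of which 6 are given, each resting on single libraries numbered 4. Cpne1 (adjusted p = 0.005628) was lowest in inhibitor 4, where the overlapping Gm28036 was highest. Ctf1 (adjusted p = 0.01544), Gm14434 (adjusted p = 0.0187) and Samd13 (adjusted p = 0.03076) were lowest in mimic 4. Gm26920 (adjusted p = 0.03076) and Gm44503 (adjusted p = 0.03962) were lowest in control 4.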

How the results depend on the processing

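Number 4 differed from numbers 1 to 3 by 3893 to 6382 genes under the alternatives that kept all libraries, against 5723 as reported. Called higher were 1786 genes against number 1 alone, where fewer libraries are compared. Leaving out 1 library gave 4070 (without control 4) to 6230 (without control 2) calls, 1909 to 2985 of them higher and 2161 to 3245 lower. The interaction gave 2 genes above 10 CPM, 13 with DESeq2 and 16 with limma on log2(TPM + 0.1), and 2 to 11 when 1 library was left out. The causes were not tested. Of 38 list medians of at least 0.1 in size followed over 24 settings, none changed sign, with 842 values within the spread between libraries and 70 outside it. Of all 71 lists with at least 10 members, 21 had a median that changed sign under some setting, each under 0.1 in size. Of the values for 59 named genes, 1384 kept their call and direction and 17 lost the call, 16 of these for Ubb and 1 for Hsp90ab1. No paired analysis was possible because the replicate number is itself what is compared. Depth of at least 60695388 counts limits little beyond genes under 1 CPM, histone genes above all, and reads are not shown to be independent molecules.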

Other observations

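Vesicle traffic genes had shares of calls near those of all genes tested (20.3% higher and 22.5% lower), and some members are given here. Of 131 endosome and retromer genes, 27 were called higher and 24 lower, with 15 higher without control 4. Vps13a, a lipid transfer protein, measured 38.0, 42.1 and 46.5 CPM in number 4 and 11.6 to 28.1 CPM (median 22.5) in numbers 1 to 3, and Eea1, a tether of early endosomes, had a log2 fold of 0.66. In traffic between the endoplasmic reticulum and the Golgi, 19 of 80 were higher and 16 lower, with 12 higher without control 4, and the large Golgi tether Golgb1 measured 48.0, 47.7 and 53.3 CPM in number 4, against 28.1 to 39.5 CPM in numbers 1 to 3 (median 32.4). Of 56 deubiquitinases, 16 were higher and 13 lower, with 10 and 8 higher without inhibitor 4 and without control 4, and 8 lower without mimic 4 or without inhibitor 4. Usp9x, an X-linked member, measured 134, 133 and 154 CPM in number 4 and 54.8 to 93.0 CPM (median 75.8) in numbers 1 to 3, and Usp36, of the nucleolus, 151, 155 and 158 CPM in number 4, against 225 to 261 CPM in numbers 1 to 3 (median 252). Among RNA-binding proteins, 18 of 50 were higher and 6 lower, with Elavl3, of neurons, at 106, 108 and 107 CPM in number 4 and 71.6 to 93.4 CPM (median 81.8) in numbers 1 to 3.

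Of 20 one-carbon and serine genes, 8 were lower and 2 higher, with 5 and 4 lower without inhibitor 4 and without control 4. Mthfd2, the mitochondrial folate enzyme, measured 543, 540.2 and 540.5 CPM in number 4, against 629 to 746 CPM in numbers 1 to 3 (median 692), and Psph, which makes serine, 163, 163 and 158 CPM in number 4 and 169 to 231 CPM (median 195) in numbers 1 to 3. Nucleotide synthesis had 7 of 23 lower and 4 higher, with 4 lower without control 4. Its median of -0.07 turned to 0.02 with length and GC trends removed, where 6 were higher and 5 lower. Nme1, a nucleoside diphosphate kinase, measured 209, 210.3 and 203 CPM in number 4, against 233 to 285 CPM in numbers 1 to 3 (median 275). Nme1 overlaps Gm20390 on its own strand. Slc6a9, a glycine transporter and ATF4 target, measured 73.2, 68.9 and 70.9 CPM in number 4 and 78.2 to 131 CPM (median 108) in numbers 1 to 3. Among homeobox genes the interneuron factors Dlx1 and Dlx2 had log2 folds of 0.79 and 0.64.

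Among the 13375 genes tested, 40 were at 0 in all 3 libraries of number 4. These genes passed the filter on low counts only through numbers 1 to 3, and genes that did not pass it were left out. Of the 40, 3 had a mean of at least 1 CPM in numbers 1 to 3. Gm20716 had the highest such mean, 33.3 CPM, but it was also at 0 in inhibitor 3 and at 21.1 to 47.9 CPM in the other 8. Some genes switched between libraries without regard to the number. A search made after values had been seen found 15 genes with at least 20 CPM in 1 library and under 1 CPM in another, of which Adm and Gm20716 were called. Raver1 measured at most 0.453 CPM in inhibitor 4, control 4, inhibitor 2 and control 3, and 118 to 137 CPM in the other 8. Gemin4 measured 50.1 to 62.6 CPM in 5 libraries numbered 1 to 3 and under 1 CPM in the other 7 libraries. The ribosomal pseudogene Rps18-ps6 was at 0 in mimic 1 and mimic 2 and at 760.0 to 949 CPM elsewhere.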
